A study of Mus musculus with 15 samples.

Results

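The enzymes that turn arachidonic acid into leukotrienes and prostanoids were followed in MLL-ENL-transformed mouse cells with and without the transcription factors C/EBPα and C/EBPβ. The 9 genes were chosen by name: Alox5, Alox5ap, Alox12, Ltc4s, Lta4h, Ptgs1, Ptgs2, Hpgds and Tbxas1. All 9 were among the 53379 genes of the deposited RNA sequencing table. Of these, 8 passed a filter on low values, 10 or more normalized reads in 3 or more libraries, and were tested among 12673 genes. Alox12 did not pass.

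Leukotrienes and prostanoids are short-lived lipid mediators made by myeloid cells from arachidonic acid, which phospholipases release from membranes. In the leukotriene arm, 5-lipoxygenase (Alox5), with its membrane partner FLAP (Alox5ap), makes leukotriene A4. Lta4h hydrolyses it to leukotriene B4, an attractant of neutrophils, and Ltc4s joins it to glutathione to give leukotriene C4, a product best known from mast cells, eosinophils and basophils. In the prostanoid arm, the cyclooxygenases Ptgs1 and Ptgs2 make prostaglandin H2, from which Hpgds makes prostaglandin D2 and Tbxas1 makes thromboxane. Alox12 is the 12-lipoxygenase best known from platelets.

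All cells were fetal liver cells of Cebpa fl/fl Cebpb fl/fl mice that had been transformed by a retrovirus carrying the MLL-ENL fusion oncogene and were kept in IL-3 at 10 ng/ml. The WT cells (WTFL in the study's naming) still carried the floxed alleles, and their labels list no exogenous expression. The dKO cells had lost Cebpa and Cebpb after treatment with TAT-Cre, a membrane-permeable recombinase, were single surviving clones, and carried GFP. The LAPS cells were dKO cells that carried GFP and LAP*, the longest isoform of C/EBPβ, from rat. The names C1 and C2 mark 2 transformed clones from different mice, with WT, dKO and LAPS cells for C1 and WT and dKO cells for C2. Each of the 5 groups had 3 libraries, so p-values describe the spread between RNA samples of 1 cell line. Deletion, selection of a clone and GFP transduction cannot be told apart in dKO against WT, nor can clone and mouse of origin between C1 and C2.

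Normalized reads, the deposited unit, are read counts divided by 1 size factor per library. The libraries held 9212237 to 13613500 reads on genes. Cebpa and Cebpb were at 0 in all 6 dKO libraries, against 902.8 to 2267 (Cebpa) and 1353 to 1634 (Cebpb) normalized reads in the WT libraries. Cebpe, another C/EBP gene, held 371 to 517 normalized reads in WT, 2022 to 2272 in dKO and 1653 to 2106 in LAPS libraries, with log2 fold changes of dKO against WT of 2.37 in C1 and 2.10 in C2 (limma adjusted p = 8.0e-11 and 3.6e-10). In LAPS cells, Cebpa was at 0 to 0.92 and Cebpb at 2537.5 to 4216 normalized reads. How many of the latter came from the rat sequence was not tested. All 6 myeloid progenitor markers (Ptprc, Spi1, Itgam, Fcgr3, Kit and Ly6c2) were present in every group, with summed levels of 25032 to 45634 normalized reads. In bulk RNA, fewer cells of a type and less RNA per cell cannot be told apart.

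Some markers of mature myeloid cells differed between the same groups. The summed level of 7 eosinophil markers ran from 29.4 to 138 normalized reads in C1 WT, 8124 to 16083 in C1 dKO, 716 to 1745 in LAPS, 4.98 to 23.8 in C2 WT and 212 to 325 in C2 dKO. Prg2, Epx, Prg3, Ear1 and Il5ra were at 0 in C1 WT. The 7 mast cell and basophil markers summed to 104 to 144 in C1 WT, 2893 to 3301 in C1 dKO, 1094 to 1310 in LAPS, 180 to 192 in C2 WT and 975 to 1379 in C2 dKO, with Tpsb2 at 0 in all groups and Fcer1a at 0 in all but C1 dKO. The 9 neutrophil granule markers summed to 110171 to 118344 in C1 WT, 270256 to 281730 in C1 dKO, 192846 to 227334 in LAPS, 145591 to 180860 in C2 WT and 193522 to 216247 in C2 dKO. The 7 monocyte and macrophage markers summed to 18478 to 24100 in C1 WT, 9991 to 13234 in C1 dKO, 6396 to 6965 in LAPS, 2137 to 4663 in C2 WT and 3045 to 4585 in C2 dKO. The 7 megakaryocyte and platelet markers summed to 89.7 to 139.6 in C1 WT, 203 to 301 in C1 dKO, 60.8 to 84.3 in LAPS, 22.9 to 63.2 in C2 WT and 117 to 211 in C2 dKO. Single markers went against these sums. In C1, Itga2b was called higher in dKO (5.92 on the log2 scale), but Pf4 (-1.51), Ppbp (-2.53) and Vwf (-1.66) were called lower. In C2 dKO, Ms4a2 of the mast cell list (-2.85) and Ear2 of the eosinophil list (-2.22) were called lower. So were Ctsg of the neutrophil list (-1.41) and Vwf of the megakaryocyte list (-3.37). Of the monocyte list, Adgre1 was called higher (2.30), and Cd14 (-2.11) and Cd68 (-0.57) lower. The part of these differences in the results below was not tested.

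The leukotriene enzymes are described first, with Alox5 (chr6:116410077-116461178, minus strand, mm10) at the head of the pathway. Its 3 C1 WT libraries held 119, 221 and 134.5 normalized reads. The C1 dKO libraries held 1237, 1285 and 1169, and the LAPS libraries 851, 932 and 885.5. The 3 groups of C1 did not overlap, with WT lowest and dKO highest. In C2, the WT libraries held 1095, 1933 and 1811 normalized reads and the dKO libraries 3507, 2640.1 and 2939. All C2 dKO libraries lay above all C2 WT libraries, and C2 WT was itself close to or above the level of C1 dKO.

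Alox5ap (chr5:149264767-149288153, plus strand), the partner without which 5-lipoxygenase makes little leukotriene in cells, held 2275, 2175 and 2186 normalized reads in C1 WT. It held 3637, 3551 and 3650.3 in C1 dKO and 3041, 2756 and 3062 in LAPS. The order of the C1 groups was that of Alox5, over a narrower range. In C2 it held 1719, 2035 and 2045 in WT and 2424, 2397 and 2462 in dKO, again without overlap.

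Lta4h (chr10:93453411-93484875, plus strand) held 7806, 8530.4 and 9430.5 normalized reads in C1 WT, 14536, 14346 and 13014 in C1 dKO and 10832, 9566 and 9984 in LAPS. In C2 it held 11152, 12374 and 10916 in WT and 18683, 20123 and 16840.0 in dKO. In both clones every dKO library lay above every WT library, and LAPS lay between them.

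Ltc4s (chr11:50236461-50238616, minus strand), the enzyme of the cysteinyl leukotrienes, was low, with 454 reads over the 15 libraries, and passed the filter through C1 libraries alone. It held 5.35, 15.3 and 11.2 normalized reads in C1 WT, 69.1, 76.6 and 72.4 in C1 dKO and 46.7, 57.1 and 59.3 in LAPS. The C2 libraries held 2.99, 6.29 and 5.50 in WT and 5.23, 4.86 and 8.58 in dKO. The C1 dKO and LAPS libraries stood above all others, and the C2 groups overlapped.

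Of the cyclooxygenases, Ptgs1 (chr2:36230426-36252272, plus strand), the constitutive form, held 2996, 2941 and 3587 normalized reads in C1 WT, 4430.4, 4811 and 4514 in C1 dKO and 3905, 4139 and 4359 in LAPS. In C2 it held 2323, 1954 and 2219.8 in WT and 1919.7, 2299.8 and 1926 in dKO. All C1 libraries lay above all C2 libraries, and in C2 the groups overlapped.

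Ptgs2 (chr1:150100031-150108227, plus strand), the inducible form, varied widely within C1 WT, with 13.4, 54.1 and 2.04 normalized reads. It held 6.80, 4.20 and 7.06 in C1 dKO and 9.14, 7.37 and 5.47 in LAPS. In C2 it held 36.9, 92.3 and 88.9 in WT and 48.1, 29.2 and 48.3 in dKO. C1 WT overlapped with every other group, C2 WT overlapped with C2 dKO, and both C2 groups lay above the C1 dKO and LAPS libraries.

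Hpgds (chr6:65117293-65144908, minus strand) passed the filter only through C1 WT, where it held 22.8, 13.5 and 16.3 normalized reads. It held 2.27, 2.10 and 7.06 in C1 dKO and 3.05, 3.69 and 2.74 in LAPS. In C2 it held 4.98, 2.10 and 6.41 in WT and 1.05, 0.97 and 1.07 in dKO, which is 1 read in each dKO library. C1 WT lay above all other groups. A gene that passes through its highest group had to be lower in the others, so Hpgds is given as levels, with no test and in no count, wherever a comparison holds C1 WT.

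Tbxas1 (chr6:38875404-39084585, plus strand) held 727, 737 and 788 normalized reads in C1 WT, 504, 576 and 547 in C1 dKO and 402, 414 and 357 in LAPS. In C2 it held 239, 224 and 263 in WT and 129.7, 73.9 and 105 in dKO. The 5 groups did not overlap, with dKO below WT in both clones and LAPS below dKO. Tbxas1 overlaps Hipk2 on the other strand (259.6 to 942.6 normalized reads), and the strand setting of the counting is not given in the sources used here.

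Alox12 (chr11:70241457-70255353, minus strand) had 1 read in 1 LAPS library and 1 read in 1 C2 WT library and 0 in the other 13, below the floor of 3 reads per library in all groups. Its level was not detectable at this depth, and it takes part in no comparison. This floor covers counting error only.

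**Figure D1:**
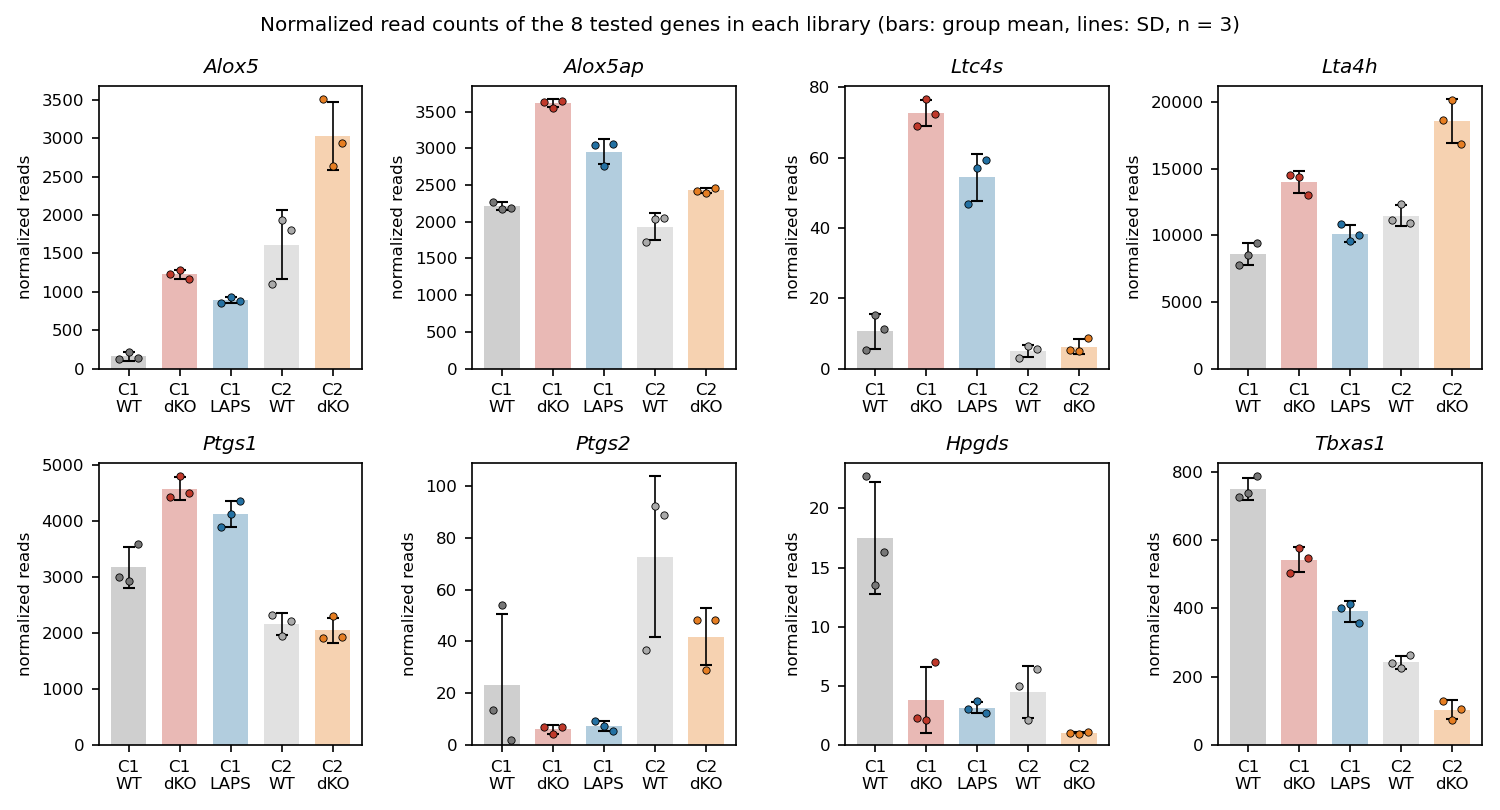
Normalized reads (vertical axes, linear, from 0) of the 8 tested genes in the 5 groups, with 1 point per library, bars for the group mean and lines for ± 1 SD (n = 3). Alox5, Alox5ap and Lta4h are higher in dKO than in WT in both clones, Ltc4s and Ptgs1 differ between dKO and WT in C1, and Tbxas1 falls from C1 WT to C2 dKO.

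Divided by exon length, the levels of the genes can be compared with each other. In C1 WT, Alox5ap stood at 1558 ± 38.4 normalized reads per kb of exon (SD, n = 3) and Lta4h at 1408 ± 133, and these neighbours did not differ beyond their spread. Ptgs1 followed at 817 ± 92.2, Tbxas1 at 82.5 ± 3.60, Alox5 at 38.5 ± 13.4, Ltc4s at 10.5 ± 4.95, Ptgs2 at 5.06 ± 5.98 and Hpgds at 2.73 ± 0.736. The libraries of Ptgs2 overlapped with those of Ltc4s and of Hpgds. Thus FLAP and Lta4h were the most abundant transcripts per length, and 5-lipoxygenase itself stood well below them.

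The order differed between groups mainly through Alox5, Tbxas1 and Ltc4s. In C1 dKO, Alox5 reached 299.6 ± 14.2 per kb and Ltc4s 71.7 ± 3.70, both above Tbxas1 at 59.6 ± 3.98. LAPS kept that order, with 217 ± 9.86, 53.6 ± 6.62 and 43.0 ± 3.28. In C2 WT, Lta4h (1881 ± 128) stood above Alox5ap (1361 ± 131), followed by Ptgs1 (558 ± 49.0) and Alox5 (393 ± 110.2). In C2 dKO, Lta4h reached 3039.8 ± 269.7 and Alox5 738 ± 107, now above Ptgs1 at 527 ± 56.0. Ltc4s stayed at 4.86 ± 1.70 and 6.14 ± 2.02 per kb in the C2 groups, below Ptgs2 at 15.9 ± 6.78 and 9.14 ± 2.40, the latter pair within their spread.

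**Figure D2:**
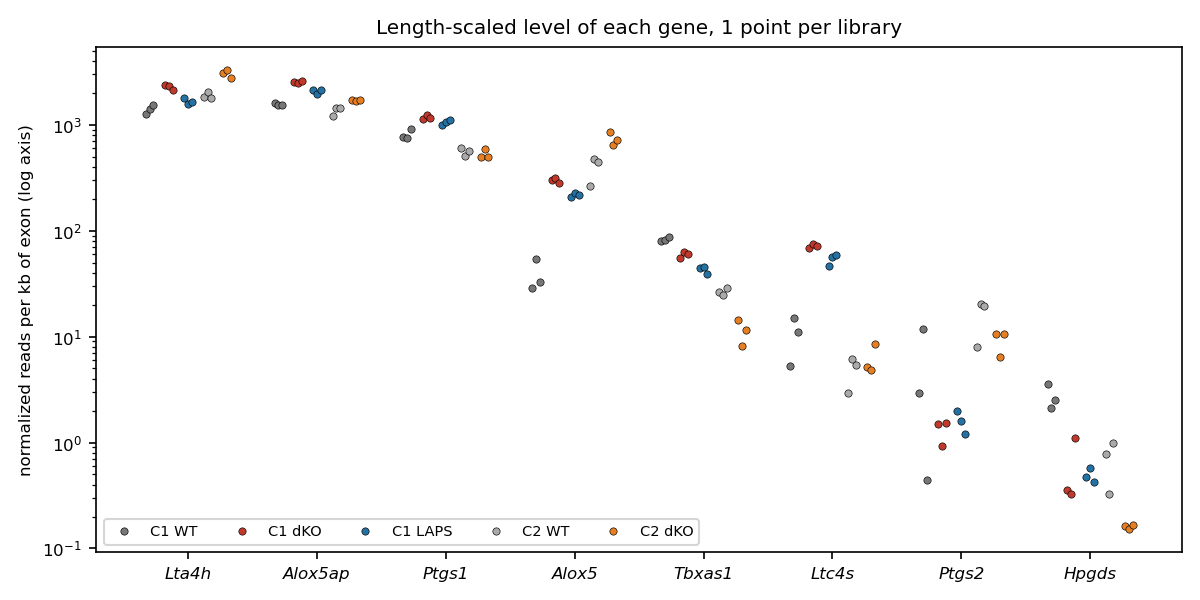
Normalized reads per kb of exon (vertical axis, log scale) of each tested gene, with 1 point per library, coloured by group. As group means, Lta4h and Alox5ap lie highest in every group and Hpgds lowest of the tested genes, while Alox5 spans from 38.5 in C1 WT to 738 in C2 dKO.

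Since the deletion removed C/EBP factors, the promoter windows of the genes were searched for letters of the C/EBP motif. RefSeq windows (GRCm38.p6) were matched for 8 of the 9 genes, and the 250 bases before the RefSeq start were searched. That start can differ from the gene spans given above. The windows of Ltc4s and Hpgds lie in part, and that of Tbxas1 wholly, within those spans. The Hpgds matches given below lie within its span. The letters TTNNGNAA were sought on both strands and occurred in 3 of the 8 windows and in 36.8% of all 32851 windows. The windows of the 2 genes with the largest rises in C1 dKO, Alox5 and Ltc4s, held none. They are shown with those of Ptgs2 and Hpgds, which held matches, in capitals. The windows lie at chr6:116461179-116461428 (minus strand, Alox5), chr11:50238533-50238782 (minus strand, Ltc4s), chr1:150099781-150100030 (plus strand, Ptgs2) and chr6:65144731-65144980 (minus strand, Hpgds).
Alox5: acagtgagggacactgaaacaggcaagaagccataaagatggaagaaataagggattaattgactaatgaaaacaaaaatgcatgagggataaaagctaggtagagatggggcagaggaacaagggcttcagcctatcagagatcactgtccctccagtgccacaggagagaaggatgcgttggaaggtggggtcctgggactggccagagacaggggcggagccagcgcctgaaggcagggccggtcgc
Ltc4s: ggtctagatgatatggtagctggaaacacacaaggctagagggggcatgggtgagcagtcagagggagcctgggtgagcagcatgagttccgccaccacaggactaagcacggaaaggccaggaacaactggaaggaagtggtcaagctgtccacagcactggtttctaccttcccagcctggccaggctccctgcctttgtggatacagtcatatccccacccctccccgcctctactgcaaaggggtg
Ptgs2: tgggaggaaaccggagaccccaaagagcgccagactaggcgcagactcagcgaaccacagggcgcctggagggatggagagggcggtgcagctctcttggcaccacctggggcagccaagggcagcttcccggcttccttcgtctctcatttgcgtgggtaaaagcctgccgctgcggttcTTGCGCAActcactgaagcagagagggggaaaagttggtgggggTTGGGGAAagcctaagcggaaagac
Hpgds: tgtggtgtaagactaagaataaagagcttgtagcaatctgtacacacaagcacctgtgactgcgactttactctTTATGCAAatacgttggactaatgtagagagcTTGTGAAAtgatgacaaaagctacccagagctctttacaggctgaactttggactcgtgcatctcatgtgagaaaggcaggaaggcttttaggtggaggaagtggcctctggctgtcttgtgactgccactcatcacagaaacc
In Ptgs2, TTGCGCAA began 69 bases before the start and reads the same on both strands, and TTGGGGAA began 25 bases before it. In Hpgds, TTATGCAA and TTGTGAAA began 176 and 144 bases before the start. Alox12 held overlapping matches on the minus strand. The PU.1 letters GAGGAA occurred in 7 of the 8 windows (all but Ltc4s) and in 23.3% of all windows, the RUNX letters TGTGGT in 3 and in 14%, and the GATA letters AGATAA in 0 and in 9.99%. A match of letters is a description of the sequence and not a binding site.

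The first comparison asked how the loss of both C/EBP factors related to these genes in C1. Of the 7 tested genes other than Hpgds, 5 were higher in dKO than in WT, against 17.1% of all tested genes, and 1 was lower, against 19.9% (limma, adjusted p under 0.05), or 6 of 7 in either direction, against 37%. The dKO and WT libraries of these 6 did not overlap, which was so for 45.2% of all tested genes. The median log2 fold change of the 7 genes was 0.70, against -0.01 over all tested genes. The 5 that rose comprised the 4 tested leukotriene enzymes and Ptgs1.

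Alox5 showed the largest rise, from a mean of 158 ± 54.9 to 1230.0 ± 58.5 normalized reads (SD, n = 3), a ratio of 7.78. Its log2 fold change was 3.00 (SE 0.21, limma adjusted p = 2.2e-08). Ltc4s rose from 10.6 ± 5.02 to 72.7 ± 3.75, by 2.77 on the log2 scale (SE 0.34, limma adjusted p = 9.3e-06). The changes of Alox5ap (0.71, SE 0.07, limma adjusted p = 1.1e-06), Lta4h (0.70, SE 0.09, limma adjusted p = 1.7e-05) and Ptgs1 (0.54, SE 0.09, limma adjusted p = 0.00031) were smaller, with ratios of means of 1.63, 1.63 and 1.44. All 5 were called in each of 8 other settings and without any single library.

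Of the prostanoid enzymes beyond Ptgs1, Tbxas1 passed the test. It fell from 750.4 ± 32.7 to 542 ± 36.2 normalized reads, by 0.47 on the log2 scale (SE 0.15, limma adjusted p = 0.023). That call was lost without C1 WT replicate 3 (adjusted p = 0.059), C1 dKO replicate 1 (adjusted p = 0.076) or C1 dKO replicate 3 (adjusted p = 0.052, all limma). Hpgds, which passed the filter through WT, stood at 17.5 ± 4.73 in WT and 3.81 ± 2.82 in dKO. Ptgs2 was not called, at -0.96 (95% interval -2.46 to 0.54, limma adjusted p = 0.31). Its estimate turned on single C1 WT libraries, being 0.06 without replicate 2 and -2.03 (limma adjusted p = 0.0054) without replicate 3, and DESeq2 called it at -1.95 (adjusted p = 0.019).

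In C2, 3 of the 8 genes were higher in dKO, against 17.4% of all tested genes, and 2 were lower, against 20.1%, or 5 of 8 in either direction, against 37.6%. The libraries of these 5 did not overlap, which was so for 51.5% of all tested genes. The median log2 fold change of the 8 genes was 0.11, against -0.03 over all tested genes. Lta4h rose by 0.69 (SE 0.09, limma adjusted p = 2.5e-05), Alox5 by 0.94 (SE 0.21, limma adjusted p = 0.0022) and Alox5ap by 0.33 (SE 0.07, limma adjusted p = 0.0015) on the log2 scale. The ratio of the Alox5 means was 1.88. Tbxas1 fell by 1.26 on the log2 scale (SE 0.15, limma adjusted p = 8.4e-06), from 242 ± 19.5 to 103 ± 28.0 normalized reads.

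Hpgds was called lower in C2, at -1.35 (SE 0.43, limma adjusted p = 0.021), from 14 reads over the WT libraries and 3 over the dKO libraries. The ratio of those reads, scaled for depth, was 0.224, with an exact 95% interval of 0.0413 to 0.803 for counting error. The call was lost in 4 of 8 other settings and without any of 3 libraries: C2 WT replicate 1 (adjusted p = 0.062), C2 WT replicate 3 (adjusted p = 0.096) and C2 dKO replicate 2 (adjusted p = 0.051, all limma). Ltc4s (0.30, 95% interval -0.42 to 1.02, limma adjusted p = 0.52), Ptgs1 (-0.08, 95% interval -0.28 to 0.12, limma adjusted p = 0.53) and Ptgs2 (-0.71, 95% interval -2.21 to 0.79, limma adjusted p = 0.46) were not called.

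Thus Alox5, Alox5ap and Lta4h, the enzymes of the path to leukotriene B4, rose in both clones, as did 5.69% of all tested genes. Tbxas1 fell in both, as did 8.36%.

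**Figure D3:**
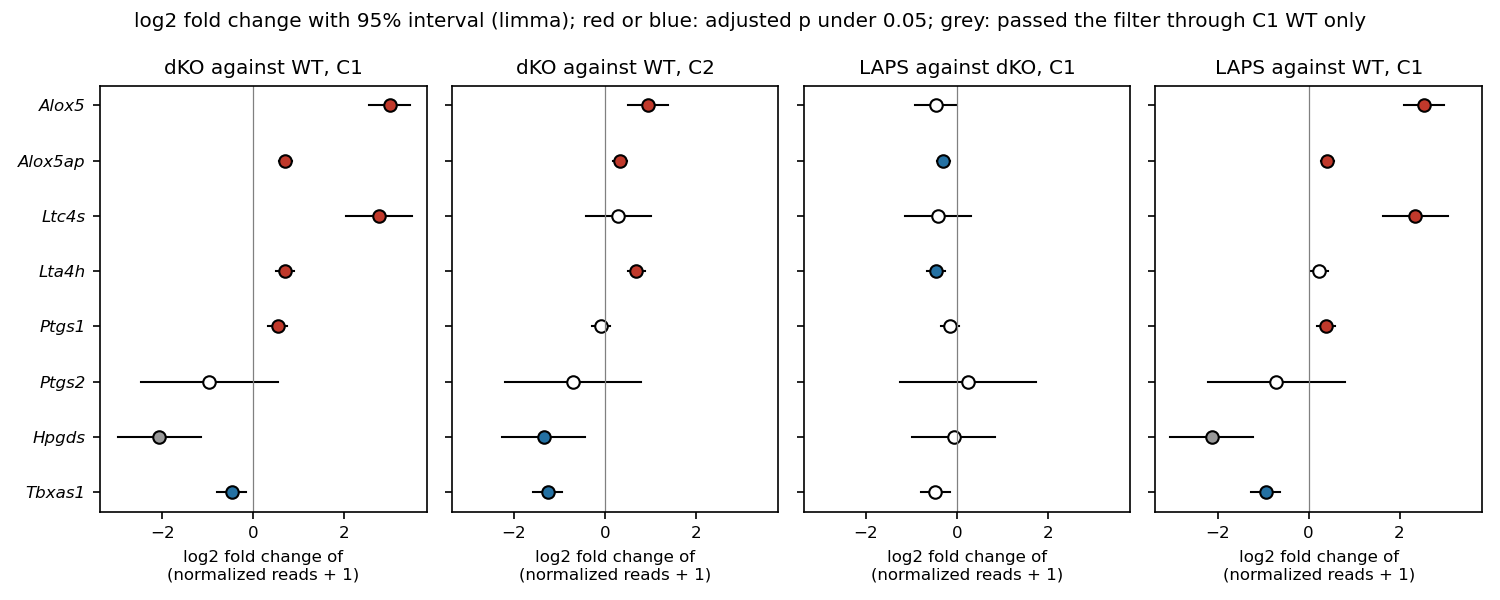
log2 fold changes (horizontal axes, on the scale of normalized reads + 1) with 95% intervals for the 8 tested genes in 4 comparisons, filled red where higher and blue where lower at an adjusted p under 0.05, open otherwise, and grey for Hpgds where C1 WT, the group through which it passed the filter, is compared. Alox5 and Ltc4s lie near 3 in dKO against WT of C1 and near 2.5 in LAPS against WT, while LAPS against dKO stays within 0.5 of 0 for all 8 genes.

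The size of the dKO difference was compared between the clones in the same model. It was smaller or more negative in C2 for 5 of the 7 genes other than Hpgds, against 14.3% of all tested genes, and more positive for 0, against 15.1%, with 29.4% called in either direction. Ltc4s, among the 5, passed the filter through C1 libraries alone, so the filter favoured its smaller value in C2. The count of 0 held at an unadjusted limma p under 0.05 and with edgeR and DESeq2. The difference, C2 minus C1, was -2.06 on the log2 scale for Alox5 (SE 0.30, limma adjusted p = 8.9e-05), -2.47 for Ltc4s (SE 0.48, limma adjusted p = 0.0011), -0.62 for Ptgs1 (SE 0.13, limma adjusted p = 0.0023), -0.37 for Alox5ap (SE 0.10, limma adjusted p = 0.0097) and -0.79 for Tbxas1 (SE 0.21, limma adjusted p = 0.011). For Tbxas1 this means a deeper fall in C2. Lta4h changed by nearly the same factor in each clone, with a difference of -0.01 (95% interval -0.29 to 0.26, limma adjusted p = 0.95). The interval for Ptgs2 (0.25, -1.87 to 2.38) was wide. Marker lists given above also differed in it. All 5 tested eosinophil markers other than Il5ra, which passed the filter through C1 dKO, were lower in the same difference. Ear1, among the 5, passed it through C1 dKO and LAPS alone, so the filter favoured its lower value. Of 5 tested mast cell and basophil markers, 4 were lower in this difference. The neutrophil granule markers were mixed: Ltf, Camp, Ngp, S100a8, S100a9 and Ctsg were lower in it, while Mpo, Elane and Prtn3 were not called, with larger estimates in C2. Of 6 tested monocyte and macrophage markers, 2 were higher in it, Csf1r (2.27) and Adgre1 (2.96). Of the 4 tested megakaryocyte and platelet markers, Ppbp (2.90) was higher and Itga2b (-2.54) lower.

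The undeleted cells themselves differed between the clones. In C2 WT against C1 WT, 3 of the 7 genes other than Hpgds were higher, against 19.7% of all tested genes, and 4 were lower, against 21.3%, so that all 7 were called, against 41%. The libraries of 5 of them did not overlap, which was so for 50.6% of all tested genes. Among the 4 lower genes, Ltc4s passed the filter through C1 libraries alone, so the filter favoured its lower value in C2. Alox5 was 10.2 times as high in C2 WT (log2 fold change 3.35, SE 0.21, limma adjusted p = 4.1e-09), and Lta4h was higher by 0.42 (limma adjusted p = 0.0016). Ptgs2 was higher by 2.35 (limma adjusted p = 0.014), although its libraries overlapped. Without 1 library at a time its log2 fold change ran from 1.28 to 3.37. This call was lost without C1 WT replicate 3 (log2 fold change 1.28), C2 WT replicate 2 or C2 WT replicate 3 (limma adjusted p = 0.054 to 0.062). It was also lost with only the groups compared (limma adjusted p = 0.11).

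Tbxas1 was lower in C2 WT by 1.63 on the log2 scale (SE 0.15, limma adjusted p = 3.1e-07), and the log2 fold changes of the other 3 were -0.55 for Ptgs1 (limma adjusted p = 0.00019), -0.91 for Ltc4s (limma adjusted p = 0.041) and -0.20 for Alox5ap (limma adjusted p = 0.033). The calls of Ltc4s and Alox5ap were each lost in at least 3 of 8 other settings, and the C1 WT and C2 WT libraries of Ltc4s overlapped. That of Alox5ap was also lost without C1 WT replicate 1, 2 or 3 or C2 WT replicate 1 (limma adjusted p = 0.051 to 0.18). That of Ltc4s was lost without C1 WT replicate 2 or 3, any C1 dKO library, LAPS replicate 2 or 3, or C2 WT replicate 1 or 3 (limma adjusted p = 0.051 to 0.18). This comparison shares its WT libraries with those of dKO against WT. The summed monocyte and macrophage markers were also lower in C2 WT (2137 to 4663 normalized reads) than in C1 WT (18478 to 24100).

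The LAPS cells asked what the return of 1 C/EBPβ isoform did in dKO cells of C1. Of the 8 genes, 2 were lower than in dKO cells, against 3.03% of all tested genes, and 0 were higher, against 1.43%, with 4.46% called in either direction. At an unadjusted limma p under 0.05 the counts were 4 lower and 0 higher, and edgeR and DESeq2 each called 3 lower and 0 higher. Lta4h fell by 0.46 on the log2 scale (SE 0.09, limma adjusted p = 0.0082), from 13965 ± 829 to 10127 ± 645 normalized reads. Alox5ap fell by 0.29 (SE 0.07, limma adjusted p = 0.028), from 3612 ± 54.1 to 2953 ± 171, and this call was lost in 2 of 8 other settings and without C1 dKO replicate 1, 2 or 3 or LAPS replicate 2 or 3 (limma adjusted p = 0.057 to 0.12). Both had been called higher in dKO against WT, and 2.65% of all tested genes were called in opposite directions in these comparisons, which share the dKO libraries.

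The other genes were not called. Alox5 stood at -0.47 (95% interval -0.91 to -0.02, limma adjusted p = 0.25), although the LAPS and dKO libraries did not overlap, which was so for 24.1% of all tested genes, and it was called when only these groups were fitted (limma adjusted p = 0.019). Ltc4s (-0.42, 95% interval -1.14 to 0.30, limma adjusted p = 0.58) and Ptgs1 (-0.15, 95% interval -0.35 to 0.05, limma adjusted p = 0.43) also had no overlap. For these 5 genes LAPS lay between dKO and WT. Tbxas1 did not: its LAPS libraries lay below both, at -0.47 against dKO (SE 0.15, limma adjusted p = 0.094), which was called by edgeR (adjusted p = 0.0498) and DESeq2 (adjusted p = 0.0071), and by limma with only these groups fitted (adjusted p = 0.049) and without C2 dKO replicate 1 (adjusted p = 0.042) or replicate 2 (adjusted p = 0.016). Ptgs2 (0.25) and Hpgds (-0.07) overlapped with dKO.

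Against WT, the LAPS cells still had 4 of the 7 genes other than Hpgds higher, against 14.2% of all tested genes, and 1 lower, against 18.3%, or 5 of 7 in either direction, against 32.5%. Among them Ptgs2 alone had overlapping LAPS and WT libraries, so 6 of 7 genes did not overlap, against 40.9% of all tested genes. Alox5 was higher by 2.54 (limma adjusted p = 1.5e-07), Ltc4s by 2.35 (limma adjusted p = 5.1e-05), Alox5ap by 0.42 (limma adjusted p = 0.00024) and Ptgs1 by 0.39 (limma adjusted p = 0.0047) on the log2 scale. Tbxas1 was lower (-0.94, limma adjusted p = 0.00014). Lta4h was the leukotriene enzyme not called here, at 0.24 (limma adjusted p = 0.057), but quantile normalization, edgeR and DESeq2 called it (adjusted p = 0.015, 0.039 and 0.028), as did limma without C1 WT replicate 3 (adjusted p = 0.022) or C2 dKO replicate 2 (adjusted p = 0.049). Ptgs2 was not called, at -0.71 (95% interval -2.21 to 0.79, limma adjusted p = 0.49), and again turned on C1 WT, being 0.31 without replicate 2 and -1.78 (limma adjusted p = 0.013) without replicate 3, and DESeq2 called it at -1.68 (adjusted p = 0.047). The LAPS and dKO libraries each enter a pair of these comparisons, so their values are only set side by side.

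Of 51 other genes named for the pathway, 33 were tested. Alox15 passed the filter only through C1 dKO, and Pla2g5 and Prxl2b only through C2 WT, so they are left out of counts over those groups. In dKO against WT of C1, 9 of 32 were higher and 8 lower, against 17.1% and 19.9% of all tested genes, with a median log2 fold change of -0.12. The 9 include Pla2g4c, Ggt5 and Ptger3, for which no WT library reached 10 normalized reads, so the filter favoured these calls. In C2, 6 of 31 were higher and 7 lower, against 17.4% and 20.1%, with a median of -0.02. Ptger3 is also among the 6. The phospholipases and acyl-chain enzymes that release and recycle arachidonate had 7 tested genes, of which 2 rose and 2 fell in C1, and of the 6 without Pla2g5 1 rose and 1 fell in C2. Pla2g4a, the cytosolic phospholipase that feeds both arms, stood at -0.18 in C1 (SE 0.07, limma adjusted p = 0.045), a call lost in 5 of 8 other settings and without any of 11 libraries, and at 0.38 in C2 (SE 0.07, limma adjusted p = 0.0004). Acsl4, an acyl-CoA synthetase with preference for arachidonate, fell in both clones, with log2 fold changes of -0.65 and -0.59 (limma adjusted p = 0.014 and 0.023). Its call was lost with only the groups compared (limma adjusted p = 0.073) and without C1 WT replicate 1 or 2 or C1 dKO replicate 2 in C1, and without C2 WT replicate 2 or 3 or C2 dKO replicate 2 in C2 (limma adjusted p = 0.055 to 0.12).

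The receptors had 7 tested genes of 13, of which 3 rose and 2 fell in each clone, against shares over all tested genes of 17.1% and 19.9% in C1 and 17.4% and 20.1% in C2. The 3 that rose were Ltb4r1, Ltb4r2 and Ptger3. Ptger3 passed the filter through dKO and LAPS libraries alone, so the filter favoured its rise. It is given below as levels, and the count of 3 is not to be read against these shares. Ltb4r1, the high-affinity leukotriene B4 receptor, rose from 626 ± 127 to 1847 ± 106 normalized reads in C1 and from 205 ± 40.6 to 710.1 ± 55.3 in C2. These were log2 fold changes of 1.58 and 1.80 (SE 0.14 each, limma adjusted p = 2.2e-07 and 5.9e-08). The low-affinity receptor Ltb4r2 rose by 2.34 and 1.64 on the log2 scale, from levels of 8.32 and 5.22 normalized reads. Of the prostaglandin E2 receptors, Ptger3 rose from 1.19 ± 1.36 to 18.5 ± 4.69 in C1 and from 2.67 ± 2.09 to 54.5 ± 4.97 in C2, and Ptger2 changed by -1.45 and -1.0 (limma adjusted p = 8.1e-05 and 0.002). Thus the leukotriene B4 receptor and the enzymes that make its ligand were both higher in dKO cells of both clones.

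Among 9 tested genes of inactivation and transport, Hpgd, the 15-hydroxyprostaglandin dehydrogenase that starts the breakdown of prostaglandins, had the largest difference between dKO and WT in C1. It fell from 5540.5 ± 329.9 to 74.5 ± 14.3 normalized reads in C1 and from 12340.0 ± 2475 to 3861 ± 373 in C2. Its log2 fold changes were -6.21 and -1.66 (SE 0.25 each, limma adjusted p = 3.7e-11 and 6.7e-05), and they differed between the clones by 4.55 (SE 0.35, limma adjusted p = 1.8e-07). LAPS cells stood at 91.8 ± 38.2 normalized reads, against 74.5 in dKO. Cyp4f18, which oxidizes leukotriene B4, rose by 1.27 in C1 and 3.03 in C2 (limma adjusted p = 0.0037 and 1.4e-06). Prxl2b, a reductase that makes prostaglandin F2α, was low throughout and went from 3.37 ± 1.75 normalized reads to 0 in C1 and from 25.3 ± 11.7 to 4.73 ± 3.41 in C2.

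**Figure D4:**
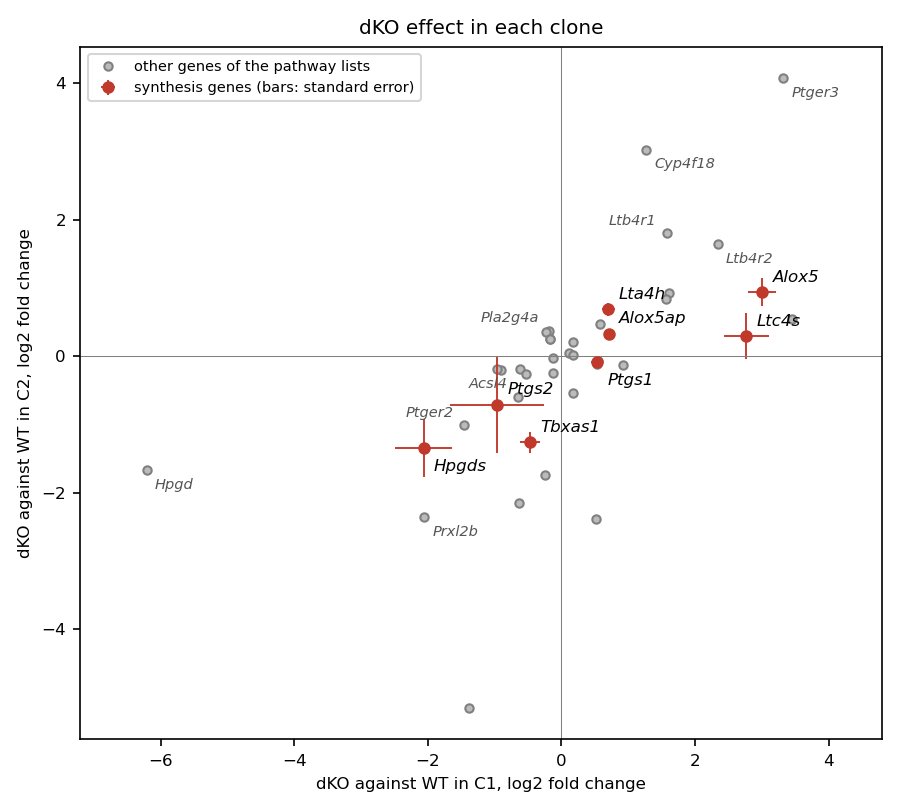
log2 fold change of dKO against WT in C1 (horizontal axis) and in C2 (vertical axis) for the 8 tested synthesis genes (red, bars for the standard error) and for 33 other pathway genes (grey, named where called in both clones). Alox5 lies at 3.00 and 0.94, Ltc4s at 2.77 and 0.30, Lta4h lies at 0.70 and 0.69, and Hpgd lies at -6.21 and -1.66.

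In LAPS against dKO, 6 of the 32 genes other than Alox15 were lower, against 3.03% of all tested genes, and 0 higher, against 1.43% (limma; 2 higher at an unadjusted p under 0.05, and 0 higher with edgeR and with DESeq2). They were Cbr1, a carbonyl reductase (-1.85, limma adjusted p = 8.3e-07), Ptges, the inducible prostaglandin E synthase (-1.01, limma adjusted p = 0.017), Ltb4r1 (-0.66, limma adjusted p = 0.011), Mgst1 and Mgst2, membrane glutathione transferases (-0.71, limma adjusted p = 0.037, and -0.51, limma adjusted p = 0.0093), and Mboat7, which returns arachidonate to phosphatidylinositol (-0.34, limma adjusted p = 0.018). The calls of Cbr1 and Mgst2 held in all 8 other settings and without any library. Alox15, the 15-lipoxygenase, stood at 18.8 ± 3.83 normalized reads in C1 dKO, the group through which it passed the filter, and at 3.80 ± 0.924 in LAPS. The calls of Ptges, Mgst1 and Mboat7 were lost without 4, 8 and 3 of the 15 libraries, all of LAPS or C1 dKO except for 2 C2 libraries for Mgst1. Those of Mgst1 and Mboat7 were also lost with only these groups fitted (limma adjusted p = 0.064 and 0.091). That of Ltb4r1 was lost without C1 dKO replicate 1 or LAPS replicate 3. Mgst2, a relative of Ltc4s that can also make leukotriene C4, stood at 977 ± 49.0 normalized reads in C1 WT, 1857 ± 56.4 in dKO and 1302 ± 35.4 in LAPS. In C2 it stood at 738 ± 139 in WT and 670.3 ± 7.5 in dKO, so that, as for Ltc4s, the C1 rise (log2 fold change 0.93) was not seen at that size in C2 (-0.12, or -0.28 and called without C2 WT replicate 3, difference -1.05, SE 0.15, limma adjusted p = 6.5e-05).

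The genes with the pattern most like each member over the 15 libraries were named by Pearson's r of log2(normalized reads + 1) among 12660 genes. These points share cell line and group, so r mostly follows the 5 group means. The nearest were Eml5 (r = 0.978) and Lmna (0.976) for Alox5, Sema4a (0.972) and Rab37 (0.970) for Alox5ap, Slc45a3 (0.966) and Bcr (0.952) for Lta4h, and Gm10524 (0.977) and Meis2 (0.977) for Ltc4s. For the prostanoid enzymes they were Ttc21a (0.979) and Rsu1 (0.972) for Ptgs1, Aldoc (0.957) and Dnpep (0.946) for Ptgs2, Cyp39a1 (0.931) and Cd302 (0.924) for Hpgds, and Cd300c2 (0.979) and C1rl (0.975) for Tbxas1. No gene appeared under more than 1 member.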

How the data were processed

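RNA was sequenced in 15 libraries, 3 in each of 5 groups. Per the labels and the methods of the study, the authors made stranded paired-end mRNA libraries, aligned reads to mm10 with STAR 2.5.3a, counted reads per gene with HTSeq 0.10.0 and normalized with DESeq2 1.26.0. The gene annotation and the strand setting are not given in the sources used here. The deposited signal is therefore a normalized read count. Values in a column were multiples of what 1 read is worth, with 100.0% of the nonzero ones whole within 0.1 read. In C2 WT replicate 1 the step was close to 1, where this check cannot tell whole reads from rounding, and its reads still entered edgeR and DESeq2. The reads recovered in this way gave library totals of 9212237 to 13613500. Reads assigned to no gene, 22.4% to 26.2% of a library, were left out, as were 3 columns that were not matched to a sample.

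Groups were compared with limma 3.58.1 (R 4.3.3) on log2(normalized reads + 1), fitting a mean for each group to all 15 libraries together, with a trended prior. A gene was tested where 3 or more libraries held 10 or more normalized reads (12673 genes), p-values were two-sided and adjusted by Benjamini-Hochberg over all of them, and genes under 0.05 were called. Fold changes of low genes are understated on this scale. An exact permutation of 3 against 3 libraries cannot reach 0.05 and was not used. Alternatives were pseudocounts of 0.1 and 5, no filter, quantile normalization, only the groups compared, a replicate block, edgeR 4.0.16 and DESeq2 1.42.0 on recovered reads, and leaving out each library. The fits were tested on simulated data.

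Names of genes without a symbol, positions and exon lengths came from GENCODE vM21. The text names all 9 synthesis genes and, for each tested member, the 2 genes with the most similar pattern. Of the 51 pathway genes it names those called in both clones or in LAPS against dKO. Others are named where the filter bore on a count. The genes and lists were chosen with earlier results of these data known. Replicate numbers did not pair the libraries.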

Additional observations from a re-analysis of the deposited data

Results flagged for a closer look

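The difference between dKO and WT was not the same in the clones for 5 of the 7 tested synthesis genes other than Hpgds, by the test of the difference itself (limma, C2 minus C1 on the log2 scale). The values were -2.06 for Alox5, -0.37 for Alox5ap, -2.47 for Ltc4s, -0.62 for Ptgs1 and -0.79 for Tbxas1. Each kept its sign and its call in all 8 other settings and without any single library. Ltc4s passed the filter through C1 libraries alone, so the filter favoured its smaller value in C2. Clone and mouse of origin cannot be told apart here, and the part of the markers of other cell types that differed between the same groups was not tested.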

How the results depend on the processing

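Of the values of single genes under other settings, leaving out genes in comparisons with the 1 group through which they passed the filter, 1521 kept their direction and call, 16 gained and 85 lost a call, and 11 turned in sign. All 11 came from leaving out 1 library, and the cause was not tested. Over those fits the log2 value ran from -2.03 to 0.059 for Ptgs2 in dKO against WT of C1, from -0.083 to 0.054 for Lta4h and from -0.77 to 1.32 for Ptgs2 in the difference between clones, from -0.31 to 0.38 for Hpgds in LAPS against dKO, and from -1.78 to 0.31 for Ptgs2 in LAPS against WT. The number of synthesis genes called lower, without Hpgds in comparisons with C1 WT, ran over the same fits from 0 to 1 in dKO against WT of C1, from 1 to 2 in that of C2, from 1 to 3 in LAPS against dKO, from 1 to 2 in LAPS against WT and from 2 to 4 in WT of C2 against C1. With other settings it was 2 with DESeq2 in dKO against WT of C1 and in LAPS against WT, 1 in dKO against WT of C2 with a pseudocount of 5, no filter, quantile normalization and DESeq2, 1 in LAPS against dKO with no filter, and 2 in WT of C2 against C1 with no filter and with only the groups compared. It was 3 in LAPS against dKO with edgeR and with DESeq2. With only the groups compared, Alox5 and Tbxas1 gained a call there and Alox5ap lost its call. In WT of C2 against C1, Alox5ap also lost its call with quantile normalization and with edgeR, and Ltc4s with DESeq2. Over all genes, LAPS against dKO gave 181 higher calls, 86 with only the groups compared and 75 to 259 without 1 library, and 384 lower calls, 196 to 469 without 1 library. Quantile normalization moved the split of higher and lower calls in dKO against WT of C1 from 2170 and 2516 to 2681 and 2052, and in LAPS against WT from 1796 and 2322 to 2521 and 1910. It also turned which direction had more calls in dKO against WT of C2 (from 2211 and 2549 to 2416 and 2289), in WT of C2 against C1 (from 2493 and 2699 to 2886 and 2378) and in the difference between clones (from 1910 and 1810 to 1752 and 1923).

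Same-numbered libraries did not deviate together in every pair (correlations of -0.174 to 0.297), so the numbers name libraries only. With the replicate block, dKO against WT of C1 gave 2044 higher and 2364 lower calls over all genes, no synthesis gene changed its call in any comparison, and Mgst1 lost its call in LAPS against dKO (limma adjusted p = 0.089). Depth limits Alox12 and Hpgds, which had 2 and 87 reads over the 15 libraries.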
